A study of Rattus norvegicus with 9 samples.

Results

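Genes of the last steps of the respiratory chain were compared between MSC-perfused and non-perfused rat kidneys. They comprise complex III (cytochrome bc1), its electron carrier cytochrome c, complex IV (cytochrome c oxidase) and complex V (ATP synthase). Members were all gene probes whose name on the array starts with Uqcr or Atp5, is Cox followed by a digit, or is Cyc1 or Cycs. The rule found 64 of 30367 gene probes, which read 52 of 26115 gene names. The filter on dim spots left 49 of these 52 genes among 13837 genes tested. The remaining 3, Cox20, Cox6a2 and Cox8c, did not pass it, although Cox20 and Cox6a2 were well above background on all 9 arrays, and 51 passed a filter on that mark instead. By structure, 9 tested genes encode complex III subunits, 12 complex IV subunits and 15 ATP synthase subunits. The other tested members were Cycs, 8 assembly factors of complex IV, the pseudogene Cox6c-ps1, and Atp5hl1, Atp5s and Atp5sl of the ATP synthase names.

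Each array measured the RNA of 1 kidney of a Fisher F344 rat, and there were 5 NP and 4 MSC arrays. All kidneys had 20 min. of warm ischaemia. MSC kidneys were then perfused for 4 hrs at 4°C with Belzer solution (BS) carrying 3000000 mesenchymal stromal cells, grown from the bone marrow of Sprague Dawley rats that express EGFP. NP kidneys received no perfusion according to the treatment field of the labels and the paper, whereas the sample titles name 4 hrs of BS perfusion. They are called NP here. Cold perfusion and MSC therefore cannot be told apart in this comparison. The animals' ages were not given in the sources used here.

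Complex III takes electrons from ubiquinol and hands them to cytochrome c, and complex IV passes them on to oxygen. Both pump protons across the inner mitochondrial membrane, and ATP synthase lets the protons back through a rotating ring to make ATP. A few subunits of these complexes are encoded in mitochondrial DNA and all members here in the nucleus. The kidney tubule, which reabsorbs salt by active transport, is among the tissues richest in mitochondria. Some complex IV subunits come in a common form and in a form typical of muscle, brown fat, lung or testis.

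The probes and promoters of some members show what the arrays read and how the genes differ in their control regions. Uqcrc1 and Atp5b were chosen because the first had the smallest p of all members and the second the largest difference of any subunit but Cox8b. Their 60-base probes lie on build rn4 at chr8:113965183-113965352 and chr7:1378451-1378510. The Uqcrc1 probe spans 170 bases of the genome and so crosses an exon junction.
Uqcrc1 probe: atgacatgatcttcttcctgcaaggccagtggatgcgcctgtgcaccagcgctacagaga
Atp5b probe: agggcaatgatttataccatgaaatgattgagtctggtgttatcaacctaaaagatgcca

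Promoters were taken from RefSeq on build GRCr8 as the 250 bases before the start of transcription. A promoter was found for 42 of the 52 member genes, and none for Cyc1, Uqcrb, Uqcr11, Cox4i2, Cox6a1, Cox6c, Cox6c-ps1, Atp5h, Atp5hl1 and Atp5sl. Matches to 5 motifs on either strand are in capitals below. The motifs are the palindrome of the nuclear respiratory factor NRF1 (GCGCA and GCGC with any base between them), CCGGAAG of ETS factors such as GABP (also called NRF2), AAGATGGC of YY1, TCAAGGTCA of the oestrogen-related receptors and TATAAA of the TATA box. The 4 promoters show an NRF1 match in a complex III gene, 3 different matches in an ATP synthase gene, and the common and the tissue-specific gene of the same complex IV subunit. They lie at chr8:118467973-118468222 (plus strand), chr14:1464610-1464859 (plus strand), chr1:213833624-213833873 (minus strand) and chr1:205408274-205408523 (minus strand).
Uqcrc1 promoter: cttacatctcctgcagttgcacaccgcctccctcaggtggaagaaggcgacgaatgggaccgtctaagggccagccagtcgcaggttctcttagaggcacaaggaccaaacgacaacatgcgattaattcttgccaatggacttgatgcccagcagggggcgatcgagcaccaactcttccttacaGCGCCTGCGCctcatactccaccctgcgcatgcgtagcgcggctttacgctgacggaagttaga
Atp5i promoter: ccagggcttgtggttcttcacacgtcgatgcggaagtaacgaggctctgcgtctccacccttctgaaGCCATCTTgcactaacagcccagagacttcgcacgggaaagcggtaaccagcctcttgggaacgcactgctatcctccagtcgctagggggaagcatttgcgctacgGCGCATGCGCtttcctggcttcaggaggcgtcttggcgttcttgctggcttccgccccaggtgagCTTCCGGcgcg
Cox8a promoter: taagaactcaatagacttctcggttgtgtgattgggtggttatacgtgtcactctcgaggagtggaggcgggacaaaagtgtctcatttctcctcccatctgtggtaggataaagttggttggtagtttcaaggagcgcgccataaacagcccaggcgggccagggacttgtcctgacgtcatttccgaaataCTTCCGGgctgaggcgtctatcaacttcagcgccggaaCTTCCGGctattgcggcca
Cox8b promoter: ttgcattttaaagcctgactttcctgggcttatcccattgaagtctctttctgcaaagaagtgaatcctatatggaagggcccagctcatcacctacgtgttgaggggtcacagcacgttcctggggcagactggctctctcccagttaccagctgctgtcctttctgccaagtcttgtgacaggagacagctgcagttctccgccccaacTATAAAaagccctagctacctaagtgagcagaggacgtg

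Uqcrc1 had its NRF1 match 64 bases before the start. Atp5i, which encodes subunit e, had YY1, NRF1 and ETS matches at 183, 76 and 11 bases. Cox8a had ETS matches at 57 and 19 bases. Cox8b had neither an NRF1 nor an ETS match and carried a TATA box 39 bases before the start. Of the 42 member promoters, 14 (33.3%) held an ETS match against 7.74% of all 27457 promoters of the same length. The member promoters had a median GC content of 56.4% against 52% over all promoters, and shares were not adjusted for it. An NRF1 match was present in 6 (14.3%) against 4.17% of all promoters. The YY1 match was found in 2 (4.76%, all promoters 1.69%), those of Atp5i and Atp5j, and the receptor match in 1 (2.38%, all promoters 0.368%), that of Atp5g3. TATA boxes stood in 3 (7.14%), those of Uqcr10, Cox8b and Atp5l, against 13.1%, and CCAAT, a sixth motif left uncapitalized, in 13 (31%) against 34.3%. Matches of different motifs overlapped in 0 member promoters. Among complex IV subunits, Cox6a2, Cox6b2, Cox8b and Cox8c had neither an ETS nor an NRF1 match, and nor did the common Cox4i1, Cox5a, Cox7b and Cox7c. A match is a description of letters and says nothing of binding.

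**Figure D1:**
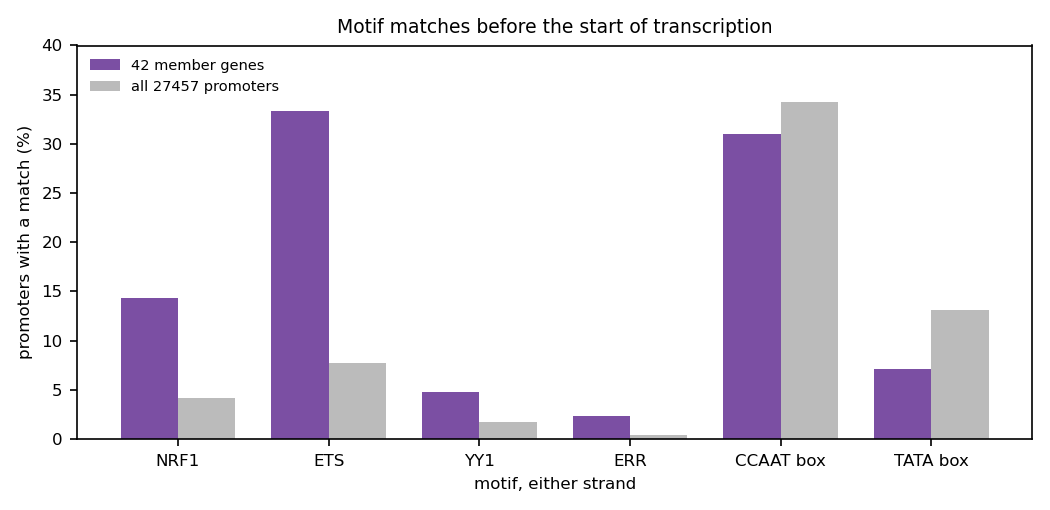
Share of promoters (%, y axis from 0) with at least 1 match to each of 6 motifs on either strand in the 250 bases before the start, for 42 member genes and for all 27457 promoters. The ETS match stood in 33.3% of member promoters and in 7.74% of all.

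Between 65.6% and 74.3% of gene spots were well above background and no gene spot was saturated. The arrays came on 2 slides, the first with NP replicates 1 to 3 and MSC replicates 1 and 2, the second with the rest. Values below are normalized log2 intensities, and a log2 fold change is MSC minus NP. A gene was called with an FDR from limma under 0.05 and a fold change over 1.5. No gene of the 13837 was called in either direction (0%), while 909 were higher and 706 lower in MSC at an unadjusted p under 0.05. This differs from the paper, which with the same limits on these arrays reported Tmem52b and Calb1 as higher in MSC. Calb1 was also higher in MSC here, by 1.13 on the log2 scale, but its limma FDR was 0.211. Why the calls differ was not tested.

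The members leaned to higher values in MSC kidneys by small amounts, and none passed the test. Of 49 members, 38 (77.6%) had a higher mean in MSC, against 48.5% of all genes, but only 27 did when arrays were scaled to their medians, where 40.8% of all genes were higher. The median log2 fold change was 0.08 over the members and -0.01 over all genes. The members' median was 0.05 without MSC replicate 4, 0.04 under 75th percentile scaling or without NP replicate 1 and MSC replicate 4, and 0.02 under median scaling. At an unadjusted p under 0.05, 6 members (12.2%) were higher, against 6.57% of all genes, and 0 were lower, against 5.1%. That count of 6 was 1 without MSC replicate 4, 3 without MSC replicate 2, 1 under median scaling, and 2 under 75th percentile scaling or with the processed signal of the scanner software. The 6 were Uqcrc1, Cycs, Atp5f1, Atp5b, Cox6c and Cox6c-ps1, and their FDR from limma lay between 0.348 and 0.407. In 4 members every MSC array was above every NP array, which held for 3.17% of all genes, and in 0 members every MSC array was below, against 2.12% of all genes. The direction was seen on both slides in 28 members, while 30.4% of all genes were higher on both. The paper had found gene sets of respiratory electron transport enriched in MSC on these same arrays, with a gene set test not run here. The lean is therefore not independent evidence of its direction. The paper's RT-PCR against BS-perfused kidneys covered other genes (Idh2, Ndufs8, Pdhb, Calb1, Slc16a1 and Atp6v0d2). In bulk RNA, fewer cells of a type and less RNA per cell cannot be told apart.

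**Figure D2:**
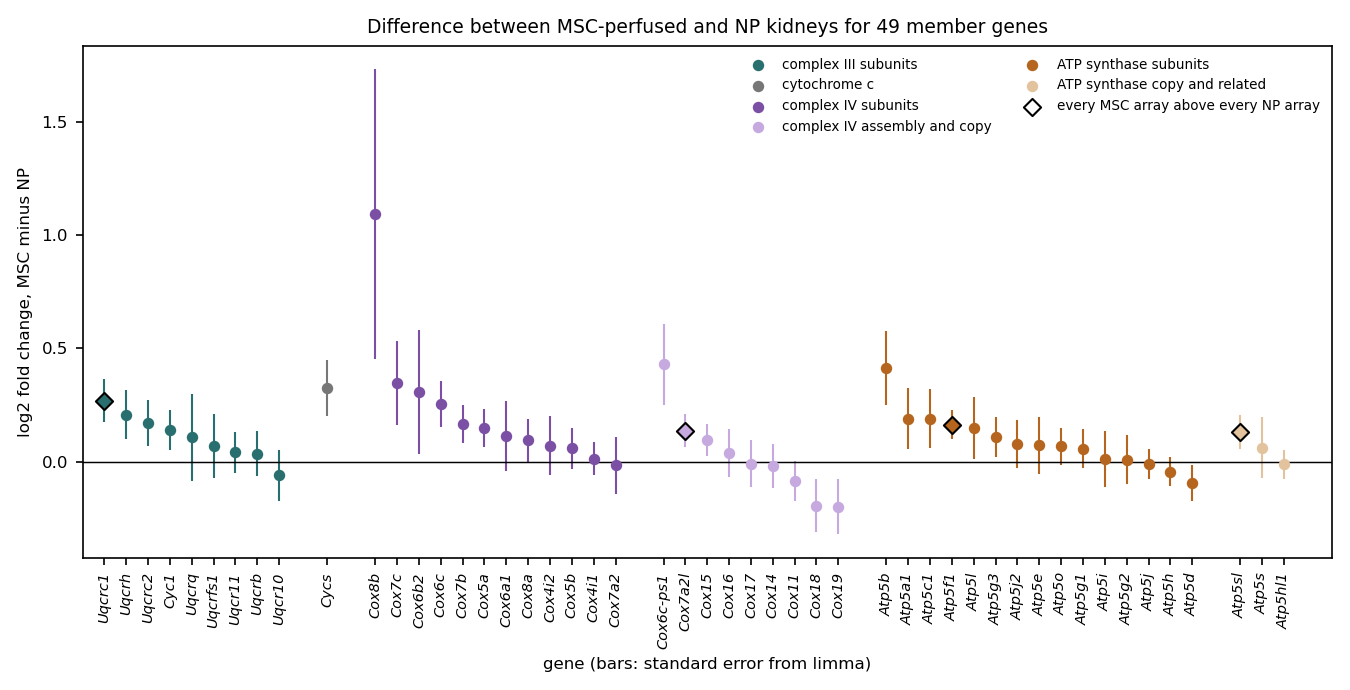
Log2 fold change (MSC minus NP, y axis) with its standard error from limma for each of the 49 tested member genes, grouped by complex (5 NP and 4 MSC arrays). Diamonds mark the 4 genes whose MSC arrays were all above the NP arrays. Cox8b has the largest value and the widest error, and all other subunits lie between -0.09 and 0.41.

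Complex III had 8 of 9 subunits with a higher mean in MSC, or 6 of 9 under median or 75th percentile scaling. The median log2 fold change was 0.11, which was 0.04 when arrays were scaled to their medians. The median of all genes was then -0.04. The median was 0.08 within the first slide and 0.16 within the second. The mean level of the 9 subunits, taken against the mean of all arrays, ran from -0.08 to 0.01 on the NP arrays and from 0.03 to 0.09 on the MSC arrays. The groups did not overlap in this mean, though the nearest arrays stood close, at 0.014 in NP and 0.027 in MSC. The same held for lists outside the members, with complex II at up to 0.02 in NP and from 0.028 in MSC, and the ATP synthase partners at up to -0.023 and from 0.028. Markers of the thick ascending limb (up to -0.032 and from -0.011) and distal convoluted tubule (up to 0.163 and from 0.235) did not overlap either.

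Uqcrc1, core protein 1 on the matrix side of the complex, read 15.69, 15.41, 15.67, 15.75 and 15.76 on the NP arrays and 15.90, 15.87, 15.86 and 16.08 on the MSC arrays. Every MSC array was above every NP array, and NP replicate 2 was the lowest. The difference of 0.27 (standard error 0.09) was a fold of 1.21, with an FDR of 0.348 from limma and an exact two-sided permutation p of 0.00794, the smallest that the splits of 9 arrays into 5 and 4 allow. Such a p needs groups that do not overlap, and every MSC array was above every NP array in 3.17% of all genes. The difference was 0.29 within the first slide and 0.21 within the second. Its partner Uqcrc2, core protein 2, read 16.02, 15.78, 15.95, 15.97 and 16.11 on NP arrays and 16.32, 16.07, 16.24 and 15.93 on MSC arrays. The groups overlapped, since MSC replicate 4 lay below 4 of the NP arrays. The difference was 0.17 on the log2 scale, with a standard error of 0.10 and an FDR of 0.536 from limma. It was 0.11 without MSC replicate 1 and 0.09 under median scaling.

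Uqcrh, the hinge protein that helps cytochrome c1 meet cytochrome c, read 17.06, 16.78, 17.06, 17.13 and 16.69 in NP and 17.10, 17.13, 17.12 and 17.25 in MSC. The MSC arrays lay close together at or above the top of the NP range, where MSC replicates 1 and 3 overlapped with it. The difference was 0.21, with a standard error of 0.11 and an FDR of 0.479 from limma, and it lay between 0.115 and 0.255 across the alternatives run. Cyc1, which encodes cytochrome c1 itself, read 17.51 ± 0.10 (SD, n = 5) in NP and 17.65 ± 0.12 (SD, n = 4) in MSC, an overlapping difference of 0.14 that was 0.09 without MSC replicate 4 and 0.04 under median scaling. The Rieske iron-sulphur protein gene Uqcrfs1 had a difference of 0.07 (standard error 0.14), with NP replicate 2 the lowest at 16.12, and the sign turned to -0.02 under median scaling and to -0.04 without that array. The accessory subunits Uqcrb, Uqcrq, Uqcr11 and Uqcr10 had differences of 0.04, 0.11, 0.04 and -0.06, all within the spread of the arrays.

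Cycs encodes the cytochrome c of body tissues, which shuttles electrons between both complexes and is also known for its part in apoptosis. Its probe with the larger variance read 17.03, 17.21, 17.50, 17.48 and 17.34 on the NP arrays and 17.45, 17.68, 17.55 and 17.87 on the MSC arrays. Only MSC replicate 1 lay within the NP range. The difference was 0.33, with a standard error of 0.12 and an FDR of 0.386 from limma. The other probe of the gene read 16.72, 17.06, 17.12, 17.01 and 16.91 against 17.06, 17.20, 17.08 and 17.16, a difference of 0.16 (standard error 0.09). Both probes lie on chromosome 4 of rn4 and gave the same direction with different sizes. Without NP replicate 1 and MSC replicate 4 the first probe's value was 0.18.

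Complex IV had 11 of 12 tested subunits with a higher mean in MSC, or 8 of 12 under median scaling or quantile normalization. The median log2 fold change was 0.13, but it was 0.04 under median scaling and -0.01 without NP replicate 1 and MSC replicate 4. Under median scaling the median of all genes was -0.04 and 40.8% of them were higher. Without those arrays the median of all genes was -0.02. Within the slides the median of the subunits was 0.07 and 0.16. The mean of the 9 subunits in their common form ran from -0.26 to 0.05 on the NP arrays and from -0.04 to 0.22 on the MSC arrays, so the groups overlapped.

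Cox6c, a small membrane subunit, had the smallest p of the complex. It read 17.50, 17.79, 17.68, 17.73 and 17.63 on NP arrays and 17.78, 17.99, 17.76 and 18.13 on MSC arrays. MSC replicates 2 and 4 lay above all NP arrays and replicates 1 and 3 within their range. The difference was 0.25, with a standard error of 0.10 and an FDR of 0.395 from limma, and it lay between 0.139 and 0.304 across the alternatives run. Cox6c-ps1, a pseudogene whose signal is uncertain because RNA of the gene can bind a near-identical probe, had a difference of 0.43 (standard error 0.18) from 12.45, 12.63, 12.94, 12.63 and 12.48 in NP and 12.78, 13.36, 12.66 and 13.43 in MSC. The same 2 MSC arrays stood highest in the gene and the pseudogene.

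Cox7b read 16.49, 16.74, 16.67, 16.76 and 16.66 in NP and 16.74, 16.86, 16.76 and 16.95 in MSC, a difference of 0.17 with an FDR of 0.479 from limma. NP replicate 1 was the lowest array and MSC replicate 4 the highest, and the groups overlapped. Cox7c had a difference of 0.35 (standard error 0.19), and its NP arrays ran from 12.52 to 13.38 and its MSC arrays from 12.98 to 13.43. Cox5a and Cox5b, neighbours of the catalytic core on the matrix side, had differences of 0.15 (standard error 0.08) and 0.06 (standard error 0.09), of which Cox5b was negative under median (-0.04) and 75th percentile (-0.01) scaling. Cox5a lay between 0.06 and 0.20 across the alternatives run. The common isoforms Cox4i1, Cox6a1 and Cox8a had differences of 0.01, 0.11 and 0.09, and each was negative under median scaling or quantile normalization. Cox7a2, the common form of subunit 7a, had a difference of -0.02 in 1 probe and 0.09 in the other. Cox6b1 was on the arrays under another name, LOC688869, with 3 probes at 0.04, 0.03 and 0.07.

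**Figure D3:**
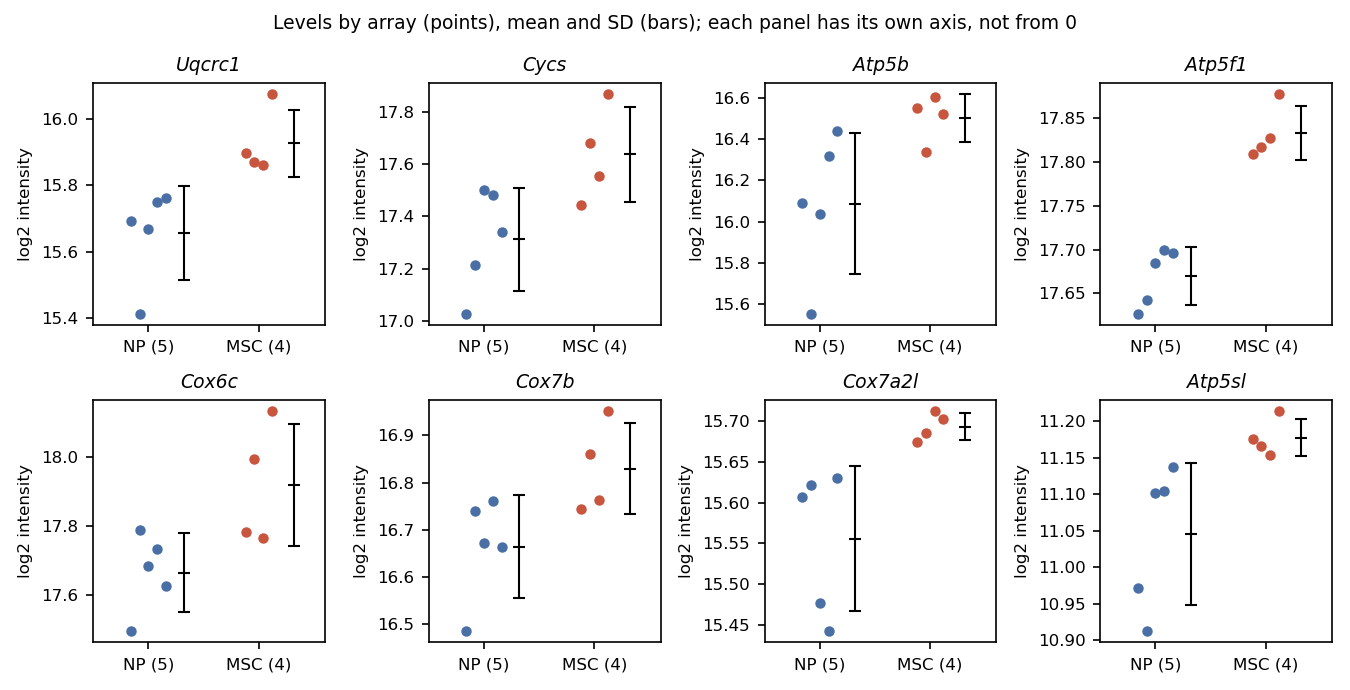
Log2 intensity (y axis, own range in each panel) of 8 members on each of 5 NP and 4 MSC arrays, with the mean and SD beside the points. The arrays of the groups do not overlap for Uqcrc1, Atp5f1, Cox7a2l and Atp5sl and overlap for Cycs, Atp5b, Cox6c and Cox7b.

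Of the tissue-specific isoforms, Cox8b stood high on some arrays. Cox8b, the subunit 8 form of muscle and brown fat, read 9.47, 9.78, 10.05, 9.31 and 9.08 on the NP arrays and 9.06, 9.33, 12.35 and 11.78 on the MSC arrays. It was high on MSC replicates 3 and 4 alone, while replicates 1 and 2 lay within or below the NP range. The log2 fold change was 1.09 with a standard error of 0.64 and an FDR of 0.528 from limma. It was -0.57 within the first slide, 2.87 within the second, and -0.34 without those 2 arrays. Cox8a, its common counterpart, ran from 18.12 to 18.51 in NP and from 18.36 to 18.55 in MSC.

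Ucp1, the uncoupling protein of brown fat, read 9.91, 8.91, 11.06, 8.22 and 8.15 in NP and 7.996, 8.47, 14.35 and 12.91 in MSC, so the same 2 MSC arrays were high. Adipoq, the fat cell hormone adiponectin, ran from 10.44 to 11.67 in NP and stood at 13.83 and 12.63 on these arrays. On MSC replicates 1 and 2 it read 10.92 and 11.78, the latter above every NP array. Of the brown fat markers 5 of 9 were tested, Cox8b among them, and their mean ran from -0.75 to 0.14 in NP and was -0.68, -0.39, 1.65 and 1.06 in MSC. Of the white and general fat markers 8 of 10 were tested, with means of -0.98 to 0.07 in NP and -0.97, 0.22, 1.84 and 1.23 in MSC. The mean was higher in MSC for 4 of 5 brown fat markers and for 7 of 8 white and general ones. It was lower for Ppara (-0.12) and Pck1 (-0.08). Elovl3, Dio2, Otop1, Plin1 and Lep did not pass the filter. The part of fat RNA in the Cox8b values was not tested. The medians of complex III, complex IV and ATP synthase without MSC replicates 3 and 4 were 0.12, 0.10 and 0.03.

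**Figure D4:**
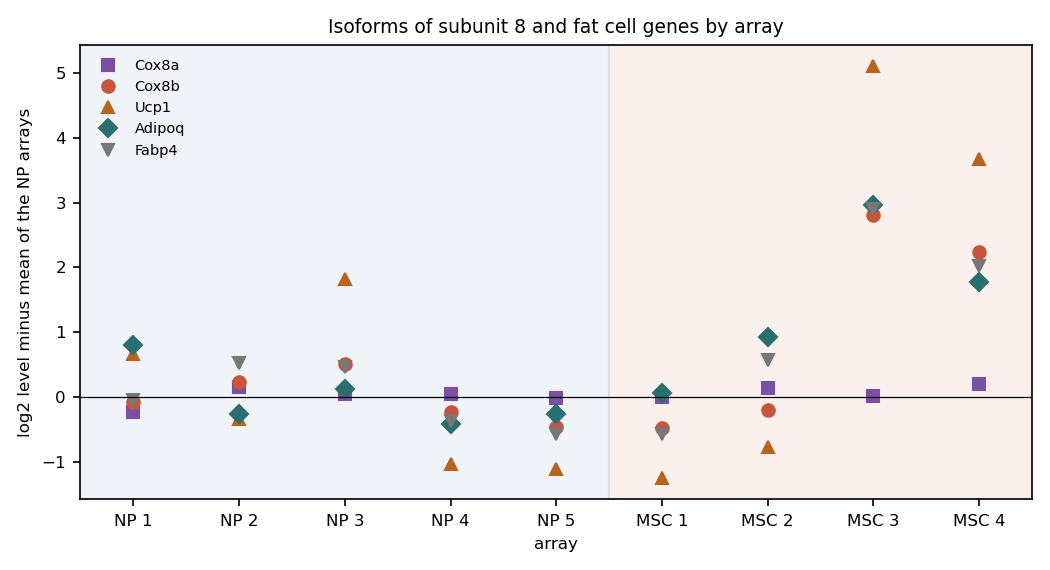
Log2 level minus the mean of the NP arrays (y axis) for Cox8a, Cox8b and 3 fat cell genes on each array (x axis). Cox8b, Ucp1, Adipoq and Fabp4 stand high on MSC replicates 3 and 4, and Cox8a stays near 0 on every array.

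Cox6b2, the testis form of subunit 6b, ran from 12.19 to 13.73 on NP arrays and from 13.01 to 13.71 on MSC arrays, a difference of 0.31 (standard error 0.27) in which NP replicate 1 was the lowest. Cox4i2, a form of subunit 4 known from lung and pericytes, ran from 12.59 to 13.06 in NP and from 12.62 to 13.04 in MSC. Neither difference exceeded the spread of the arrays. Cox6a2, the muscle form of subunit 6a, passed the intensity limit on 1 NP and 1 MSC array, and Cox8c of the testis was well above background on 1 of 9 arrays. Of 12 markers of skeletal and heart muscle, 1 (Mb) passed the filter. LOC687508, described on the array as like subunit 7A1, had a difference of -0.21 (standard error 0.18). Cox7a1, Cox7b2 and Cox6c2 were not found under those names.

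ATP synthase had 12 of 15 subunits with a higher mean in MSC, or 9 of 15 under 75th percentile scaling and 7 of 15 under median scaling. The median log2 fold change was 0.07, but it was -0.03 under median scaling, -0.01 without NP replicate 1 and MSC replicate 4, and 0.02 without MSC replicate 4 alone. The median of all genes was -0.04, -0.02 and -0.01 in these settings, and 40.8% of all genes were higher under median scaling. Within the slides the median of the subunits was 0.04 and 0.09. The mean of the 15 subunits ran from -0.11 to 0.02 in NP and from -0.01 to 0.14 in MSC, with overlap.

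In the catalytic head F1, Atp5b, the beta subunit that carries the active sites, had the largest difference. It read 16.09, 15.55, 16.04, 16.32 and 16.44 on NP arrays and 16.55, 16.34, 16.60 and 16.52 on MSC arrays. MSC replicate 2 lay within the NP range and the other MSC arrays above it, and NP replicate 2 was far below the rest. The difference of 0.41 (standard error 0.16) was a fold of 1.33, with an FDR of 0.391 from limma, and it was 0.55 and 0.18 within the slides. Without NP replicate 2 it was 0.28. A predicted copy of the beta subunit, LOC365654, had 0.15 (standard error 0.09), and the signals of copy and gene are uncertain.

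Atp5c1, the gamma subunit that forms the turning shaft, had NP replicate 2 lowest as well, at 15.87 against 16.32 to 16.49 on the other NP arrays. Its MSC arrays ran from 16.36 to 16.60, and the difference was 0.19 (standard error 0.13), or 0.08 without NP replicate 2. Atp5a1, the alpha subunit, read 18.18 on NP replicate 1 and 18.51 to 18.62 on the other NP arrays, against 18.44 to 19.00 in MSC. Its difference was 0.19 (standard error 0.13), and 0.01 without NP replicate 1 and MSC replicate 4. The small subunits Atp5d (delta) and Atp5e (epsilon) had differences of -0.09 and 0.07.

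In the stalk and membrane part, Atp5f1, which encodes subunit b of the side stalk, varied little within the groups. It read 17.63, 17.64, 17.68, 17.70 and 17.70 on NP arrays and 17.81, 17.82, 17.83 and 17.88 on MSC arrays. The groups did not overlap, and each had an SD of 0.03. The difference of 0.16 (standard error 0.06) was a fold of 1.12, with an FDR of 0.391 from limma and an exact two-sided permutation p of 0.00794. The gene was named for its small p and its lack of overlap on these arrays, so the exact p is not separate support. The difference was 0.16 within either slide and 0.14 without NP replicate 1 and MSC replicate 4. Under median scaling it was 0.06.

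Subunit c, the ring that turns, is encoded by 3 genes whose mature proteins are known to be the same. Atp5g1, Atp5g2 and Atp5g3 had differences of 0.06, 0.01 and 0.11, and only that of Atp5g3 kept its sign under every alternative run, at sizes from 0.037 to 0.179. The second probe of Atp5g3, which varied less between arrays, gave 0.12 with every MSC array (17.54 to 17.61) above every NP array (17.32 to 17.51). Atp5o, the subunit that joins the stalk to the head, had 0.07 (standard error 0.08). Other stalk and membrane subunits, Atp5h, Atp5i, Atp5j, Atp5j2 and Atp5l, lay between -0.04 and 0.15. Atp5sl, a relative of coupling factor B now called Dmac2, had no overlap between groups, with NP arrays from 10.91 to 11.14 and MSC arrays from 11.15 to 11.21. The difference was 0.13, with a standard error of 0.08 and an FDR of 0.516 from limma.

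The assembly factors among the members were split between both directions. Of 8 tested complex IV assembly factors, 3 had a higher mean in MSC, and their median was -0.01. Cox18, which inserts a core subunit into the membrane, and Cox19, a copper-handling protein, had the lowest values at -0.19 (standard error 0.12) and -0.20 (standard error 0.12). For Cox19 the difference was -0.39 within the first slide and 0.07 within the second. Cox7a2l, which joins complexes III and IV into supercomplexes, stood apart, with NP arrays from 15.44 to 15.63 and MSC arrays from 15.67 to 15.71. Every MSC array was above every NP array, the log2 fold change was 0.14 (standard error 0.07) and the FDR from limma 0.489. Across the alternatives run its log2 fold change lay between 0.0599 and 0.175. The difference between assembly factors and subunits was not tested.

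Of 14 complex IV assembly factors with other names, 7 were higher and 7 lower, with a median of -0.00127. Of 5 for complex III, 3 were higher, with a median of 0.10, which was 0.08 within the first slide and 0.09 within the second. Mnf1, a complex III assembly factor now called Uqcc2, read 14.03, 14.15, 14.45, 14.36 and 14.08 in NP and 13.95, 13.83, 13.84 and 13.86 in MSC. All its MSC arrays were below all NP arrays, which held for 2.12% of all genes, and the difference was -0.34, with a standard error of 0.10 and an FDR of 0.333 from limma. Cmc1, which acts early on complex IV, was also lower on every MSC array, at -0.18 with an FDR of 0.387 from limma.

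Of 8 partners of ATP synthase, 7 had a higher mean in MSC and their median was 0.16. Slc25a3, the carrier that brings phosphate into the mitochondrion, read 16.03, 16.13, 16.10, 15.997 and 16.16 in NP and 16.29, 16.38, 16.15 and 16.51 in MSC. Only MSC replicate 3 lay within the NP range, and the difference was 0.25, with an FDR of 0.357 from limma. Tmem70, an assembly factor, and Usmg5, a small membrane subunit, had 0.26 and 0.28 (standard error 0.12 for each). Atpif1, the inhibitor of ATP synthase, had -0.09 (standard error 0.09).

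For comparison, 27 of 46 genes with names starting with Nduf were higher with a median of 0.02, and 5 of 5 complex II genes with a median of 0.02. The Nduf names were taken to stand for complex I by name alone. Both lists hold assembly factors beside subunits, unlike the subunit counts above. Of 8 genes that supply heme a and copper, 6 were higher with a median of 0.05, but 3 of the 8 (Cox11, Cox15 and Cox17) are members, and Sco1 and Slc25a3 also stand in the lists of assembly factors and of ATP synthase partners. Regulators of mitochondrial genes were split, with 7 of 15 higher and a median of -0.01. Among them, Ppargc1a had a difference of -0.01 (standard error 0.23), Nrf1 -0.15 (standard error 0.12), Gabpa 0.10 (standard error 0.17) and Esrra -0.04 (standard error 0.09). No gene of these lists was called in either direction. The difference between these lists and the members was not tested.

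Some bright transcripts shared an order of arrays with a control RNA, and in that order the arrays of the groups were mixed. The spike-in control E1A, a synthetic RNA added to each sample, read 18.03, 19.12, 18.73, 18.70 and 18.56 on the NP arrays and 18.50, 18.92, 18.59 and 19.28 on the MSC arrays. It was lowest on NP replicate 1 and highest on MSC replicate 4, with means of 18.63 ± 0.39 (SD, n = 5) in NP and 18.82 ± 0.35 (SD, n = 4) in MSC. Cox6a1, the common form of subunit 6a, read 18.19, 18.95, 18.69, 18.70 and 18.57 in NP and 18.51, 18.79, 18.61 and 19.01 in MSC. Its arrays stood in the same order as those of the spike-in, but for NP replicates 3 and 4, which changed places. The mean of the 6 transcripts of these complexes from mitochondrial DNA ran from -0.72 to 0.39 in NP and from -0.19 to 0.48 in MSC, also with NP replicate 1 lowest and MSC replicate 4 highest. Their median log2 fold change was 0.16, within that spread. Not all of the 11 subunits with a mean level over 18 shared the order. Cox4i1 was highest on NP replicate 4 (18.16). Uqcr10 was highest on NP replicate 2 (18.69) and read 18.27 on MSC replicate 4.

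NP replicate 1 was the lowest array in 18 of 36 tested subunits (50%), against 25.7% of all genes. MSC replicate 4 was the highest in 17 (47.2%), against 12.1% of all genes. Without these 2 arrays, 27 of 49 members were higher in MSC, with a median of 0.04 against -0.02 for all genes, of which 45.4% were higher. Leaving out the lowest array of one group and the highest of the other narrows a difference by construction. Of the 5 members with p under 0.05 other than the pseudogene, Uqcrc1, Atp5b and Atp5f1 stood at 0.23, 0.41 and 0.14 without them, and Cycs and Cox6c at 0.18 and 0.14, against 0.33 and 0.25 with all arrays. Cox7b stood at 0.08, against 0.17. The part of this order in the members' differences was not tested.

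**Figure D5:**
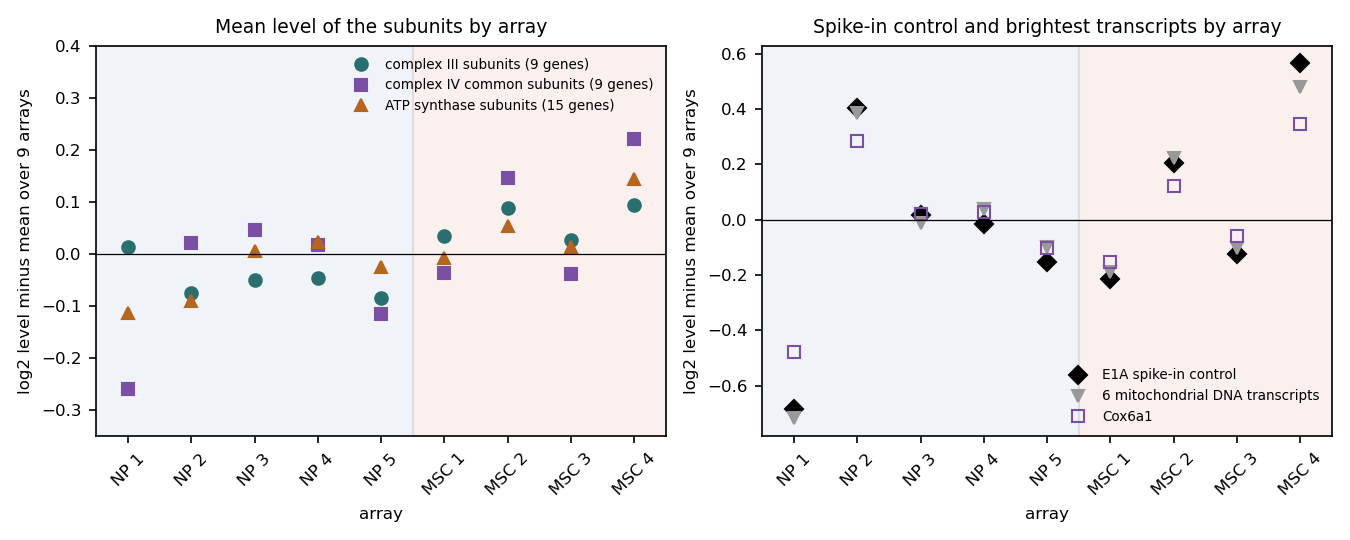
Left, mean log2 level of the subunits of complex III, complex IV (common forms) and ATP synthase on each array, minus the mean over 9 arrays. Right, the same for the E1A spike-in control, 6 transcripts of mitochondrial DNA and Cox6a1. The right-hand values are lowest on NP replicate 1 and highest on MSC replicate 4, and the complex III means of the groups on the left do not overlap.

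Markers of kidney cell types are given beside these values. No marker was called here, including Calb1 of the distal convoluted tubule, which the paper reported as higher in MSC. Of 9 proximal tubule markers, all of which passed the filter, 7 had a higher mean in MSC (mean level -0.46 to 0.08 on NP arrays and 0.08 to 0.14 on MSC arrays), and of 6 markers of the thick ascending limb 5 (-0.30 to -0.03 and -0.01 to 0.46). All 3 tested markers of the distal convoluted tubule (-0.57 to 0.16 and 0.24 to 0.36) and all 7 of the collecting duct (-0.62 to 0.13 and -0.01 to 0.52) were higher, and the 2 tested red cell markers had lower means (0.02 to 1.30 and -3.13 to 0.61). The median log2 fold changes of these lists, in the same order, were 0.18, 0.29, 0.59, 0.42 and -1.71. Of 7 markers of mesenchymal stromal cells, 4 passed the filter and all were higher, with a median of 0.53 (-0.65 to 0.16 and -0.15 to 0.65). Of 7 tested pericyte and smooth muscle markers, Cox4i2 among them, 3 were higher, with a median of -0.01. The part of cell composition in the members' values was not tested.

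Several probes of a gene mostly gave the same sign. Of 9 members with more than 1 tested probe, 1 (Cox7a2) had probes of opposite sign, and the largest gap between probes of a gene was 0.17, for Cycs. Predicted copies named by locus were read apart from the members. LOC689961, described as like subunit c, had a difference of 0.18 (standard error 0.11). LOC689459, described as like cytochrome c, had 0.17 (standard error 0.15), and LOC681754, described as like subunit 6B1, had 0.04 (standard error 0.12). Values of genes with near-identical copies are uncertain on arrays.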

How the data were processed

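RNA of 9 rat kidneys was labelled with Cy3 and hybridized to 1-colour Agilent arrays (positions on rn4). Per the file headers, spot intensities are mean pixel brightness from Agilent Feature Extraction 10.7.3.1, with background not subtracted. The log2 values that the authors deposited, made with cyclic loess, were used only as an alternative. The columns of other samples left unused numbered 0. No depth applies to arrays, and the number of arrays limits the precision.

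Mean intensities were put on the log2 scale and normalized by cyclic loess with limma 3.58.1 in R 4.3.3. Spots above 1.1 times the 95th percentile of the negative controls on at least 4 arrays were kept, a limit applied here to the normalized log2 values (the methods' wording leaves the multiple and the scale unsure, and this reading decides which members were tested), outlier spots were left out, and replicate spots were averaged. The probe with the largest variance stood for its gene. MSC and NP were compared with limma, with Benjamini-Hochberg FDR over all 13837 genes. For single genes, group means were also compared with every other way to divide the arrays into 5 and 4 (exact permutation, two-sided). The test was tried on simulated data in which 50 genes were changed at each size: at a log2 difference of 0.2, 2 passed the FDR threshold, at 0.5 it was 23 and at 1 it was 40.

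Groups came from the treatment field. Members, gene lists and tests were chosen with earlier results of these data known. The genes named in the text were the 4 subunits of smallest p in each complex, the complex IV isoforms, core subunits, subunit c genes and members whose groups did not overlap. Other genes were named after their values were seen. Of the 52 members, 49 were matched by accession to current RefSeq names, and 16 have another symbol now. Names are those of the array. Alternatives covered background, normalization, filter, probe choice, variance model, slide and replicate blocks, and left-out arrays. Python 3.11.15, pandas 2.3.3 and matplotlib 3.10.9 were used for promoters and figures. One further MSC array that the study discarded was not analysed here.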

Additional observations from a re-analysis of the deposited data

Results flagged for a closer look

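In 4 of 64 checks of a level within a group of arrays, 1 array stood apart from the others by more than the 95% limit of Dixon's test, which chance exceeds in about 1 of 20 groups. All 4 were NP arrays. Atp5a1 read 18.18 on NP replicate 1, where the nearest array read 18.51. Uqcrc1 read 15.41 on NP replicate 2, with the nearest at 15.67, and Atp5c1 read 15.87 on the same array, with the nearest at 16.32. Cox5a read 16.84 on NP replicate 3, above the nearest at 16.69. Without NP replicate 2 the Uqcrc1 difference was 0.21 and the Atp5c1 difference 0.08.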

How the results depend on the processing

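No member passed the FDR threshold under any of the alternatives run, where the smallest FDR of a member was 0.229, with array weights. Of 700 values of the 28 named genes tested, 657 kept their sign. The median log2 fold change of complex III was 0.0416 under median scaling and 0.0552 with each probe on its own, and 0.0648 to 0.141 with 1 array left out, lowest without NP replicate 3. That of ATP synthase was 0.00484 under 75th percentile scaling, -0.0326 under median scaling, and -0.0117 without NP replicate 1 and MSC replicate 4, an alternative chosen after seeing the data. With 1 array left out it ran from 0.0177, without MSC replicate 4, to 0.0977, and was 0.0375 without NP replicate 1. That of complex IV, 0.131, was 0.0418 under median scaling, -0.0072 without NP replicate 1 and MSC replicate 4, and 0.0655 to 0.175 with 1 array left out, lowest without NP replicate 1 and 0.0841 without MSC replicate 4. The median of all genes was 0.000525 under 75th percentile scaling, -0.0393 under median scaling and -0.023 without NP replicate 1 and MSC replicate 4. Leaving out Cox8b, also chosen after seeing the data, gave 0.113 for complex IV. The cause was not tested.

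Signs turned as follows. With the processed signal, Atp5g2 was -0.00721 and Cox4i1 -0.025. With quantile normalization, Atp5g1 was -0.00273, Cox4i1 -0.0328, Cox6a1 -0.00196 and Cox8a -0.00791. With 75th percentile scaling, Atp5g1 was -0.00749, Atp5g2 -0.0533, Cox4i1 -0.0523 and Cox5b -0.00545. With median scaling, Atp5g1 was -0.0449, Atp5g2 -0.0907, Atp5o -0.0357, Cox4i1 -0.0897, Cox5b -0.0429, Cox8a -0.0115 and Uqcrfs1 -0.0193. The median of all genes was -0.0393 in that setting. Cox7a2 was 0.0367 as the mean of its probes and 0.0574 with array weights, where Cox4i1 was -0.0327. Without MSC replicates 3 and 4, Atp5g2 was -0.0582, Cox4i1 -0.0035 and Cox8b -0.34. Without NP replicate 1 and MSC replicate 4, Atp5g1 was -0.0117, Atp5g2 -0.0919, Atp5o -0.00886, Cox4i1 -0.0247, Cox4i2 -0.0137, Cox5b -0.0269, Cox6a1 -0.0876, Cox6b2 -0.023 and Cox8a -0.000661. The median of all genes was -0.023 without these arrays. With 1 array left out, Atp5g2 ran from -0.0626 to 0.0746, Cox4i1 from -0.0223 to 0.0383, Cox7a2 from -0.0921 to 0.0445 and Uqcrfs1 from -0.0391 to 0.147.

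The replicate numbers did not pair the arrays: deviations of arrays with the same number correlated at 0.199, 0.325, -0.346 and 0.0451. With the replicate block the medians of complex III, complex IV and ATP synthase were 0.0985, 0.123 and 0.0562, Atp5g2 was -0.0192, and 35 of 49 members were higher in MSC. With the slide as a block the medians were 0.105, 0.129 and 0.0638.

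The groups were small, and a log2 difference of 0.2, larger than the members' median of 0.08, was rarely called in simulated data. Smaller differences were not simulated. The simulated data also held large changes that passed the FDR threshold, while no gene passed in the real data, so the shares need not carry over. Perfusion and MSC cannot be told apart, and the labels conflict on whether NP kidneys were perfused.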
